A study of Mus musculus with 17 samples.

Results

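The 10 genes described here mark microglia, the resident macrophages of the brain, in their homeostatic and activated states. They were taken by gene name from the 4 deposited count tables, which together list 36271 genes. 3 of them (P2ry12, Tmem119 and Cx3cr1) are homeostatic genes and 3 (Cst7, Itgax and Trem2) are activation genes. The other 4 (Csf1r, Aif1, Tyrobp and Ctss) are expressed in both states. All groups came from C57BL/6 mice, and RNA-seq counts were available for 17 libraries. In 14 libraries the labels give primary neurons or neurons, in 7 groups of 2 libraries: ADM-treated neurons and their control, neurons given an ApoE particle and their control (set 1), and neurons given a reconstituted ApoE particle or an ApoE particle, with a control (set 2). The hippocampus gave 3 groups of 1 library: ApoE shRNA with FC, control shRNA with FC, and control shRNA without FC. All 3 hippocampus groups had received an shRNA (short hairpin RNA). The labels do not spell out ADM or FC, and they give no age, dose, shRNA vector or promoter, or number of mice per library. They also do not say whether the 2 libraries of a neuron group came from separate cultures, so p-values measure only the spread between these samples.

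P2ry12 is a purinergic receptor with which microglial processes sense nucleotides, Tmem119 is a membrane protein found in brain mostly on microglia, and Cx3cr1 is the receptor for the neuronal chemokine Cx3cl1. Microglia that meet damaged tissue, dying cells or amyloid lower such genes and raise others, a shift that depends in mice on Trem2, a lipid-sensing receptor that binds ApoE among other ligands. Trem2 signals through Tyrobp, its adaptor. Cst7, a cysteine protease inhibitor, and Itgax, the integrin chain known as CD11c, are widely used marks of the activated state. Csf1r is the growth factor receptor that microglia need to survive, Aif1 encodes the actin-binding protein IBA1, and Ctss is a lysosomal protease of antigen-presenting cells. Apoe, the gene targeted by the shRNA, is itself a gene of the activated state in microglia, beside its main source in brain, the astrocytes.

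The genes are given by their position in mm10. The homeostatic genes are P2ry12 (ENSMUSG00000036353, chr3:59216272-59262871), Tmem119 (ENSMUSG00000054675, chr5:113793729-113800516) and Cx3cr1 (ENSMUSG00000052336, chr9:119901616-120069879), all on the minus strand. The activation genes are Cst7 (ENSMUSG00000068129, chr2:150570415-150578944), Itgax (ENSMUSG00000030789, chr7:128129547-128150657) and Trem2 (ENSMUSG00000023992, chr17:48346401-48354147), all on the plus strand. Of the others, Aif1 (ENSMUSG00000024397, chr17:35170991-35176068) is on the minus strand, and Tyrobp (ENSMUSG00000030579, chr7:30413760-30417585) and Ctss (ENSMUSG00000038642, chr3:95526786-95556403) are on the plus strand.

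Between the hippocampus library of control shRNA with FC and each of the other 2, differences were widest at Itgax, Cst7 and Ctss and narrowest at P2ry12, so the 250 bases upstream of the RefSeq start of these 4 genes (assembly GRCm38.p6) are shown, 5′ to 3′ on the gene's strand. The Cst7 stretch lies at chr2:150570165-150570414 on the plus strand. The Itgax stretch lies at chr7:128129300-128129549 on the plus strand. The Ctss stretch lies at chr3:95526536-95526785 on the plus strand, and the P2ry12 stretch at chr3:59262986-59263235 on the minus strand. Capitals mark matches to GAGGAA, a sequence recognised by the myeloid factor PU.1, and to a motif of interferon regulatory factors (GAAA, any 2 bases and GAAA). Each was searched on both strands, and other sequences that PU.1 can bind were not searched.
Cst7: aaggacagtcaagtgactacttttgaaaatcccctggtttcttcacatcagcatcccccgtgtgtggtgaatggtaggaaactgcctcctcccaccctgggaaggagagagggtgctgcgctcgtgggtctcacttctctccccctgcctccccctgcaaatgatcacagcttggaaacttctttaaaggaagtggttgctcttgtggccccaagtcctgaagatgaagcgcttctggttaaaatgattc
Itgax: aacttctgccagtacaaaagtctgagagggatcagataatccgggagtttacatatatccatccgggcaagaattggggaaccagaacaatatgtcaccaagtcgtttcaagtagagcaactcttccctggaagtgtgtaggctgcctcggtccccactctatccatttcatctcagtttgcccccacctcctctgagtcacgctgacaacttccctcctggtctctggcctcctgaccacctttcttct
Ctss: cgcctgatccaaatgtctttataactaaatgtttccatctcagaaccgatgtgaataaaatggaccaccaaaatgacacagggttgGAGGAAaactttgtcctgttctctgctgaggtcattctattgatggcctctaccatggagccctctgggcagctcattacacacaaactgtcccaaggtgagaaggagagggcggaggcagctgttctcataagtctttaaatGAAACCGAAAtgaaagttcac
P2ry12: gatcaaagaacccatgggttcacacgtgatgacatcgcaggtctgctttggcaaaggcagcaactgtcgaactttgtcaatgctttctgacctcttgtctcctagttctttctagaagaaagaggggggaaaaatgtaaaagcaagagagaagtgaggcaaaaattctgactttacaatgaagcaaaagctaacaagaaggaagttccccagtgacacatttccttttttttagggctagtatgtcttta
Ctss held a GAGGAA match that starts 164 bases before the start site and a match of the interferon regulatory factor motif that starts 21 bases before it. The Cst7, Itgax and P2ry12 stretches held no match to either searched sequence, which leaves out other forms of a PU.1 site. The 7 members with an entry in the RefSeq table held no TTCNNNGAA, the motif of STAT factors. Of those 7, GAGGAA was found in Aif1, Ctss and Trem2, and the interferon regulatory factor motif in Aif1 and Ctss. Over 32851 mouse promoter stretches of the same length, 23.3% held GAGGAA, 2.98% held the interferon regulatory factor motif and 7.02% held TTCNNNGAA. A match of letters describes the sequence only.

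Library totals ran from 14.62 to 19.14 M counts, and levels are given as CPM, each library's counts divided by its total in M. In the hippocampus, 10 neuron markers summed to 6320 to 7454 CPM in the 3 libraries. The same markers summed to 5225 to 7447 CPM in the 14 neuron libraries, where 10 astrocyte markers summed to 705 to 4667 CPM and were above 0 in every library. The libraries of each neuron group were distinct: chi-square values over genes between its 2 libraries were 2.52 to 61.7 times their degrees of freedom. In set 2, 1489 genes, Tyrobp and Trem2 among them, had no value in the control and ApoE particle libraries.

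**Figure D1:**
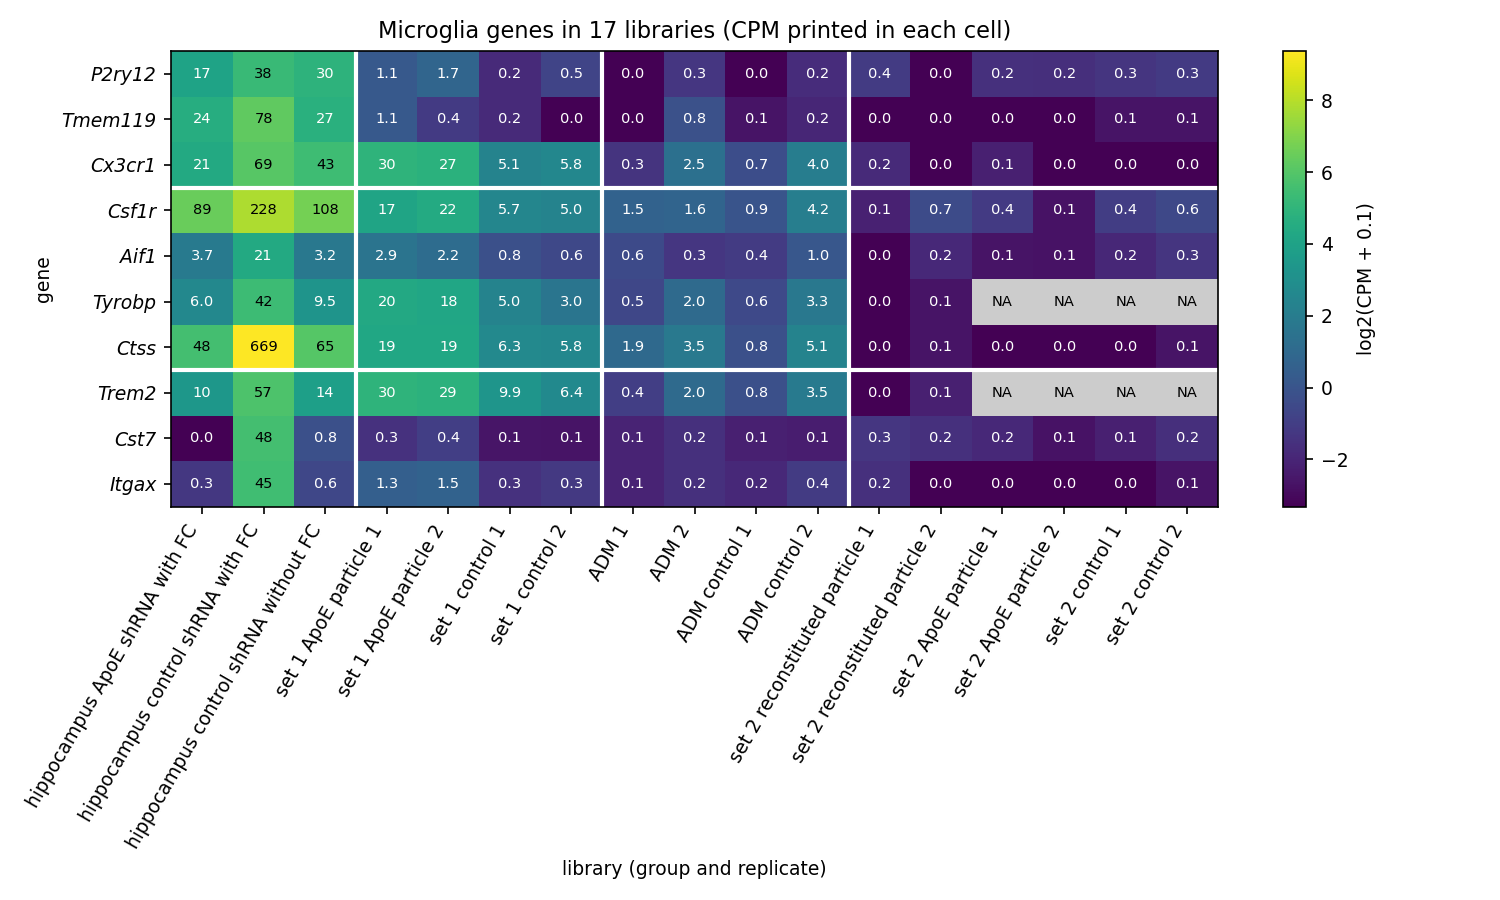
CPM of the 10 genes (rows, with homeostatic genes at the top and activation genes at the bottom) in the 17 libraries (columns), coloured by log2(CPM + 0.1), with NA where a library had no value. Cst7 and Itgax reached 47.5 and 44.7 CPM in the hippocampus library of control shRNA with FC and did not pass 1.52 CPM in any other library.

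The 10 genes together took 220 CPM in the hippocampus library of ApoE shRNA with FC, 1295 CPM in control shRNA with FC and 300.4 CPM in control shRNA without FC. In the neuron libraries their sum was 123 and 121 CPM with the set 1 ApoE particle and 33.3 and 27.4 CPM in its control. It was 5.54 and 13.5 CPM in ADM neurons and 4.46 and 22.0 CPM in the ADM control. In set 2 it was 1.21 and 1.31 CPM with the reconstituted particle, over all 10 genes. Over the 8 genes with values in the other libraries of set 2, it was 0.943 and 0.394 CPM with the ApoE particle. In the control it was 1.03 and 1.62 CPM over the same 8, so these sums do not all cover the same genes. In bulk RNA, fewer microglia and less of these RNAs per cell cannot be told apart, and this holds for each comparison that follows.

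The targeted gene, Apoe, stood at 1384 CPM in the hippocampus library of ApoE shRNA with FC, at 2797 CPM in control shRNA with FC and at 1697 CPM in control shRNA without FC. Its log2 ratio was -1.02 for ApoE shRNA with FC against control shRNA with FC and -0.29 against control shRNA without FC. Since each hippocampus group is a single library, none of the differences below has a replicate check and no test was made. Log2 ratios of CPM are given with an exact 95% binomial interval that covers counting error only. A gene is counted as past 2-fold only where its higher library held at least 100 counts. The 3 comparisons share libraries: control shRNA with FC and control shRNA without FC each enter 2 of them, as does ApoE shRNA with FC.

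With FC, the control shRNA hippocampus had far higher levels of the activation genes than the control shRNA hippocampus without FC, while the homeostatic genes differed little or moderately. 8 of the 10 genes were past 2-fold higher, where 6.65% of 12510 genes were. These were 3 of 3 activation genes, 1 of 3 homeostatic genes and 4 of 4 of the others. The median log2 ratio over the 10 genes was 2.07, against 0.03 over all genes.

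Among the activation genes, Itgax held 795 counts (44.7 CPM) in control shRNA with FC and 10 counts (0.550 CPM) in control shRNA without FC, an 81.2-fold ratio (interval 43.9 to 170.0). Cst7 held 845 counts (47.5 CPM) and 14 counts (0.771 CPM) in the same order of libraries, a 61.6-fold ratio (36.5 to 113). Trem2 stood at 56.9 CPM with FC and 14.3 CPM without FC, a 3.98-fold ratio (3.47 to 4.57). Itgax and Cst7 were thus close to the detection floor without FC, whereas Trem2 was measured well in both libraries. Ranked among the 12510 genes by this ratio, Itgax was at place 36, Cst7 at 47 and Trem2 at 381.

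Among the homeostatic genes, Tmem119 stood at 78.5 CPM with FC and 26.6 CPM without FC, a 2.95-fold ratio (2.65 to 3.27). Cx3cr1 stood at 68.5 and 42.6 CPM, a 1.61-fold ratio (1.47 to 1.76). P2ry12 stood at 38.4 and 29.9 CPM, a 1.28-fold ratio (1.15 to 1.44), the smallest of the 10 genes. All 3 were higher with FC, so no homeostatic gene was lower in the library in which the activation genes were high.

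The other 4 genes had log2 ratios of 1.09 to 3.35. Ctss stood at 669 CPM with FC and 65.3 CPM without FC (log2 ratio 3.35, interval 3.27 to 3.44), and it was the most abundant of the 10 genes in both libraries per length of its merged annotated exons, at 492 and 48.1 CPM per kb. Aif1 stood at 20.9 and 3.25 CPM (2.68, 2.29 to 3.11). Tyrobp, the adaptor of Trem2, stood at 42.2 and 9.52 CPM, and its log2 ratio of 2.14 (1.91 to 2.39) was close to the 1.99 (1.79 to 2.19) of Trem2. Csf1r (ENSMUSG00000024621, chr18:61105572-61132149, plus strand) stood at 228 and 108 CPM (1.09, 1.01 to 1.16). Over 873 bases, or 15.1% of its exon length, Csf1r overlaps exons of Hmgxb3 on the opposite strand, and no source used here gives the strand setting of the counting, so some of its counts could belong to Hmgxb3. That share was not tested. The overlap was 78 bases for Cx3cr1 and 9 for P2ry12, and the other 7 genes had none.

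With the same FC, the hippocampus with ApoE shRNA had lower levels of all 10 genes than the hippocampus with control shRNA. 10 of 10 were past 2-fold lower, where 9.48% of 12474 genes were, with a median log2 ratio of -2.46, also with Cst7 set at its bound. Cst7 was not detected in the ApoE shRNA library (0 counts, which allows up to 0.159 CPM) against 845 counts in control shRNA. It was thus at least 299-fold lower, taking 3 counts per library as the floor and the 845 counts as exact. Itgax held 6 counts (0.317 CPM) with ApoE shRNA against 795 (44.7 CPM) with control shRNA, a log2 ratio of -7.02 (-8.59 to -6.01). Trem2 stood at 10.5 CPM with ApoE shRNA and 56.9 CPM with control shRNA, a log2 ratio of -2.44 (-2.67 to -2.22).

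The homeostatic genes were lower by less. Tmem119 stood at 24.2 CPM with ApoE shRNA and 78.5 CPM with control shRNA, Cx3cr1 at 21.1 and 68.5 CPM, and each had a log2 ratio of -1.70. P2ry12 stood at 16.7 and 38.4 CPM, with a log2 ratio of -1.20 (-1.40 to -1.01), again the smallest. Of the remaining genes, Ctss stood at 47.7 CPM with ApoE shRNA and 669 CPM with control shRNA (-3.81), Tyrobp at 6.03 and 42.2 CPM (-2.80), Aif1 at 3.70 and 20.9 CPM (-2.49), and Csf1r at 89.4 and 228 CPM (-1.35). Both comparisons with control shRNA with FC rest on that single library.

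Set against control shRNA without FC, which differs from it in both the shRNA and FC, the hippocampus with ApoE shRNA and FC differed far less. 7 of the 10 genes reached 100 counts, and 1 of them, Cx3cr1, was past 2-fold lower, where 1.45% of 11980 genes were. Cx3cr1 stood at 21.1 CPM with ApoE shRNA and 42.6 CPM in control shRNA without FC, a log2 ratio of -1.01 (-1.19 to -0.83). With library totals rescaled by TMM factors (a trimmed mean of log ratios), it was no longer past 2-fold and the count was 0. P2ry12 stood at 16.7 and 29.9 CPM, a log2 ratio of -0.84 (-1.05 to -0.64). Tmem119, the third homeostatic gene, stood at 24.2 and 26.6 CPM, and its interval of -0.33 to 0.05 included 0.

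Tyrobp, Ctss, Trem2 and Csf1r had log2 ratios of -0.66, -0.45, -0.45 and -0.27 in that comparison, and none of their intervals included 0. Aif1 had 70 counts with ApoE shRNA and 59 in control shRNA without FC, a log2 ratio of 0.19 (-0.33 to 0.71). Itgax had 6 and 10 counts, and its interval of -2.54 to 0.81 covered both directions. Cst7 had 0 and 14 counts, at least 4.85-fold lower by the floor of 3 counts if the 14 counts are taken as exact. The activation genes Itgax and Cst7 were therefore near the floor in both of these libraries.

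**Figure D2:**
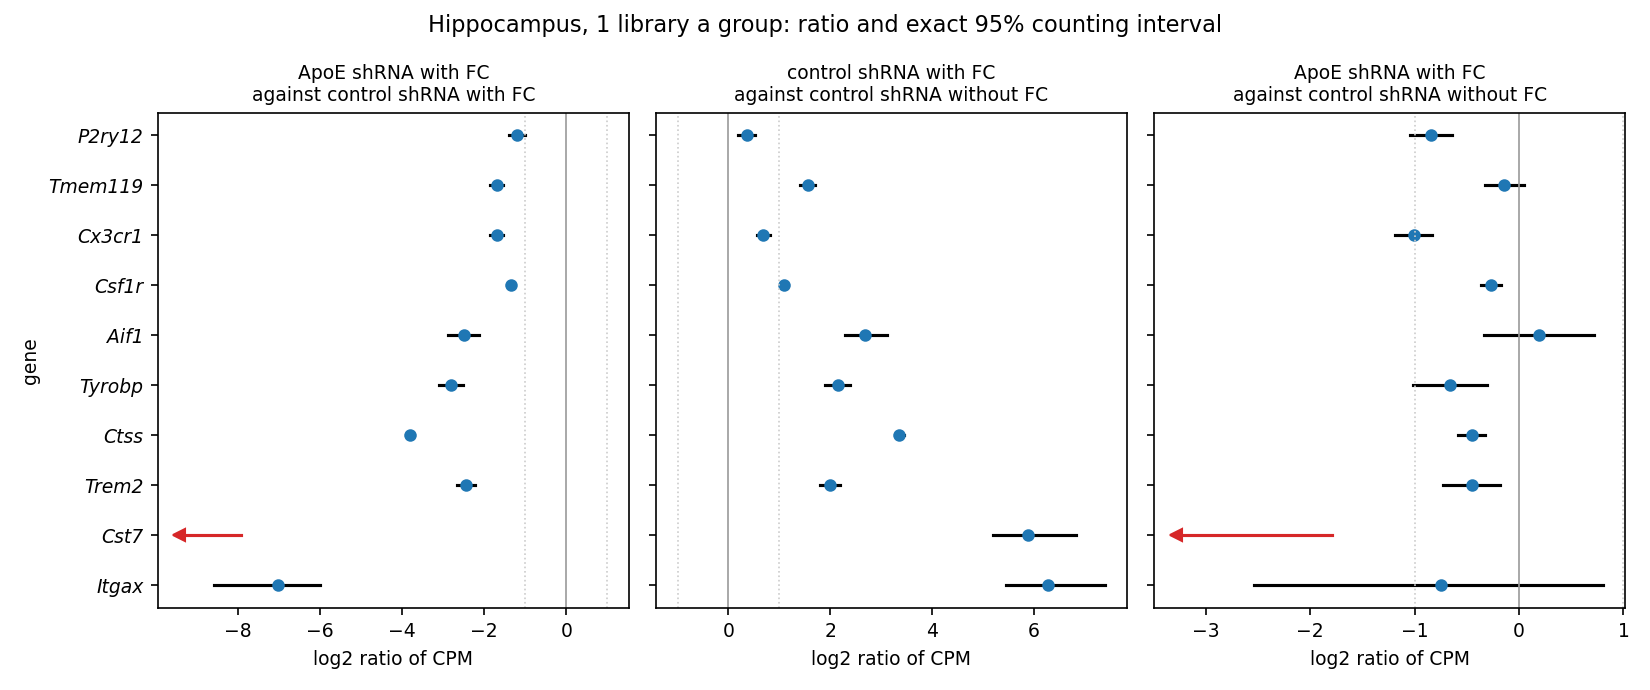
Log2 ratio of CPM (points) with its exact 95% counting interval (lines) for each gene in the 3 hippocampus comparisons. Dotted lines mark 2-fold, and a red arrow starts at the upper limit of the interval for Cst7, which had 0 counts with ApoE shRNA. Itgax had ratios of -7.02, 6.27 and -0.75 from left to right, and P2ry12 had -1.20, 0.36 and -0.84.

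Most microglia genes outside the 10 were also highest in control shRNA with FC. Of 25 other microglia and macrophage genes, 19 were past 2-fold higher and 1, Fcrls, past 2-fold lower in control shRNA with FC against control shRNA without FC, with a median log2 ratio of 1.77. In ApoE shRNA with FC, 22 of 25 were past 2-fold lower than in control shRNA with FC. C1qa, a subunit of the complement protein C1q, stood at 36.6 CPM with ApoE shRNA, 453 CPM in control shRNA with FC and 46.7 CPM in control shRNA without FC.

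Of 19 other genes of the activated state, 17 reached 100 counts, and 13 of these were past 2-fold higher and 1, Lpl, past 2-fold lower in control shRNA with FC against control shRNA without FC. In ApoE shRNA with FC, 13 of 17 were past 2-fold lower than in control shRNA with FC. Apoe, the target of the shRNA, is on this list and among the 13. Gpnmb, a membrane glycoprotein of lysosome-rich phagocytes, stood at 6.61 CPM with ApoE shRNA, 60.7 CPM in control shRNA with FC and 7.21 CPM in control shRNA without FC. Lgals3, a galectin of activated phagocytes, stood at 0.317, 21.1 and 0.606 CPM, and Spp1, the secreted protein osteopontin, at 4.87, 37.0 and 5.34 CPM. Lpl, a lipoprotein lipase that is also expressed in neurons, stood at 16.5, 8.43 and 32.8 CPM. Fcrls and Lpl, and Cd74, Cd8a and H2-Aa further on, were named after their values were seen.

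Of the ligands and partners of the 10 genes, Csf1, a ligand of Csf1r, stood at 30.6 CPM with ApoE shRNA, 74.4 CPM in control shRNA with FC and 36.2 CPM in control shRNA without FC. Il34, the second ligand of Csf1r and mainly a product of neurons, stood at 44.6, 35.0 and 42.8 CPM, and Cx3cl1, the neuronal ligand of Cx3cr1, at 676, 626 and 522 CPM. Neither moved past 2-fold. Itgb2, the integrin chain that pairs with Itgax, stood at 6.67, 51.9 and 5.78 CPM.

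Genes of other cells also stood apart in the library of control shRNA with FC. A list of 12 border and blood macrophage markers summed to 9.79 CPM with ApoE shRNA, 1153 CPM in control shRNA with FC and 16.1 CPM in control shRNA without FC, most of it Cd74, the invariant chain of MHC class II. Cd74 is also induced in microglia. All 12 had values, and the number at 0 counts was 3, 0 and 2 in these libraries. A list of 7 T cell genes, chosen after the data were seen and 6 of them with values, summed to 0.317, 45.7 and 0.716 CPM, and Cd8a held 0, 323 and 5 counts. A list of 10 genes of interferon gamma and antigen presentation, chosen in the same way and 9 of them with values, summed to 18.5, 1836 and 24.6 CPM. Of these, the class II gene H2-Aa held 9, 7910 and 15 counts. Itgax and Ctss are also expressed by blood-derived dendritic cells and macrophages, and Cst7 by cytotoxic lymphocytes. The part of such cells in the levels of the 10 genes was not tested. Neuron and oligodendrocyte markers moved little in the same comparison: 1 of 10 and 0 of 9 were past 2-fold higher with FC, and 1 of 10 astrocyte markers was.

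To set the activation genes against the homeostatic genes, the mean log2(CPM + 0.1) of Cst7, Itgax and Trem2 minus that of P2ry12, Tmem119 and Cx3cr1 was taken in each library. It was -4.75 in ApoE shRNA with FC, -0.26 in control shRNA with FC and -4.01 in control shRNA without FC. In summed counts, the activation genes held 204 and the homeostatic genes 1171 with ApoE shRNA, a ratio of 0.174. They held 2652 and 3298 counts in control shRNA with FC (0.804), and 284 and 1800 counts in control shRNA without FC (0.158). By either measure the library of control shRNA with FC was the one in which the classes came near each other, and the other 2 hippocampus libraries lay close together.

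**Figure D3:**
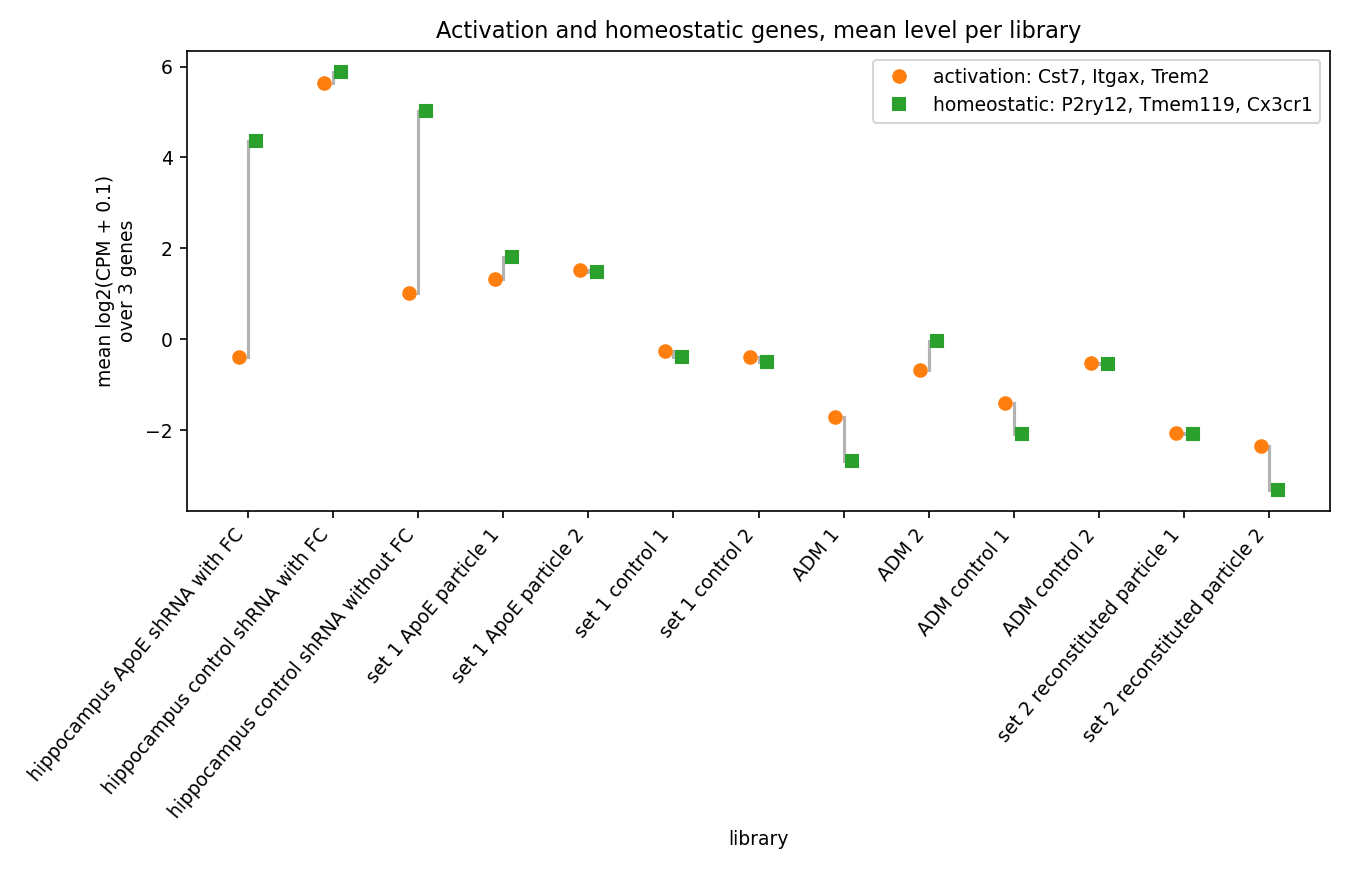
Mean log2(CPM + 0.1) of the 3 activation genes (orange circles) and the 3 homeostatic genes (green squares) in each library, joined by a grey line. The difference was -4.75, -0.26 and -4.01 in the 3 hippocampus libraries, and the control and ApoE particle libraries of set 2 are left out because Trem2 had no value there.

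In neuron cultures, the question was whether an ApoE particle changes the RNA of the cells. In set 1, the RNA of microglia genes was higher with the ApoE particle than in control. Both libraries with the particle lay above both control libraries for all 10 genes. 8 of the 10 passed the filter on low counts and were tested with edgeR's quasi-likelihood F test, with Benjamini-Hochberg adjustment over 16475 genes, and 8 of 8 rose, where 18.9% of all genes tested did. P2ry12, Itgax and Aif1 passed the filter only through the libraries with the particle, so the count is not read as support. Of these, Aif1 also reached the cutoff in 1 control library, too few to pass. Fold changes below are log2 values ± SE. The SE was derived from the test, as the absolute log2 fold change divided by the square root of its F value.

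Cx3cr1 stood at 30.3 and 27.2 CPM with the particle against 5.06 and 5.76 CPM in control. It rose by 2.30 ± 0.15 (adjusted p = 2.49e-06), the largest change of the 8. P2ry12 stood at 1.08 and 1.69 CPM with the particle against 0.190 and 0.509 CPM in control, and rose by 1.84 ± 0.54 (adjusted p = 0.0207). That call was lost without ApoE particle library 2 (adjusted p = 0.241), without control library 1 (0.0763) and with DESeq2 (0.0842). Tmem119 was not tested. It had 1.08 and 0.351 CPM with the particle against 0.190 and 0 CPM in control, where 3 counts are worth 0.17 to 0.19 CPM.

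Trem2 was the most abundant activation gene, at 30.5 and 28.6 CPM with the particle against 9.86 and 6.38 CPM in control, and rose by 1.77 ± 0.17 (adjusted p = 2.45e-05). Itgax stood at 1.33 and 1.52 CPM with the particle against 0.253 and 0.339 CPM in control and rose by 2.13 ± 0.49 (adjusted p = 0.00544), a call lost without ApoE particle library 2 (adjusted p = 0.0688). Cst7, at 0.253 and 0.409 CPM with the particle against 0.0632 and 0.0565 CPM in control, was not tested. Cst7 and Itgax thus stayed low in the cultures, in contrast to Trem2.

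All 4 other genes rose. Tyrobp stood at 20.3 and 18.1 CPM with the particle against 4.995 and 2.99 CPM in control and rose by 2.17 ± 0.21 (adjusted p = 2.32e-05). Csf1r, at 16.97 and 22.0 CPM against 5.69 and 5.03 CPM, rose by 1.76 ± 0.18 (adjusted p = 2.86e-05). Ctss, at 18.7 and 18.9 CPM against 6.26 and 5.76 CPM, rose by 1.54 ± 0.15 (adjusted p = 2.45e-05). Aif1, at 2.91 and 2.16 CPM against 0.759 and 0.565 CPM (12 and 10 counts), rose by 1.83 ± 0.39 (adjusted p = 0.00359), with 1 of the 2 control libraries under the filter's 0.607 CPM. The 8 changes lay between 1.54 and 2.30, a narrow range beside that of the same genes in the hippocampus.

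By mean log2 level the classes did not separate in set 1. The mean of the activation genes minus that of the homeostatic genes was -0.48 and 0.03 with the particle and 0.14 and 0.11 in control. In control, P2ry12, Tmem119, Cst7 and Itgax held at most 9 counts per library, so the means there lean on the 0.1 CPM added. The ratio of summed counts, activation over homeostatic genes, was 0.986 and 1.04 with the particle and 1.87 and 1.08 in control. The order of levels within the cultures was unlike that of hippocampus. Per kb of a gene's merged exons, with the particle, Tyrobp had 30.4 and 27.2 CPM, Ctss 13.8 and 13.9, and Cx3cr1 6.73 and 6.04, while P2ry12 had 0.423 and 0.665 and Tmem119 0.465 and 0.151. In the hippocampus of control shRNA without FC, P2ry12 at 11.7 and Tmem119 at 11.5 CPM per kb lay above Cx3cr1 at 9.45 CPM per kb. The tables come from separate experiments and this difference in order was not tested.

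Other microglia genes rose in set 1 as well. Of 25 such genes 24 were tested, and 22 rose and 0 fell, with a median log2 fold change of 1.67. C1qa rose by 1.87 ± 0.12 (adjusted p = 2.02e-06) and Laptm5, a lysosomal membrane protein of blood-lineage cells, by 1.92 ± 0.12 (adjusted p = 2.08e-06). Of 19 other genes of the activated state 17 rose, with a median of 1.18, among them Spp1 by 1.79 ± 0.13 (adjusted p = 3.27e-06) and Gpnmb by 1.24 ± 0.09 (adjusted p = 4.11e-06).

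Among 14 ligands and partners 13 were tested, 10 rose and 2 fell. Csf1 stood at 167 ± 16.8 CPM with the particle and 44.7 ± 5.83 CPM in control (SD, n = 2 each) and rose by 1.80 ± 0.11 in edgeR (adjusted p = 1.5e-06). Itgb2 rose by 2.39 ± 0.25 (adjusted p = 4.19e-05). The 2 that fell were the neuronal ligands: Il34 changed by -1.11 ± 0.35 (adjusted p = 0.0279) and Cx3cl1 by -0.55 ± 0.08 (adjusted p = 0.000468). Cx3cl1 and its receptor Cx3cr1 therefore moved in opposite directions in set 1.

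Markers of other cells moved in the same comparison, in which 3120 of all 16475 genes tested rose and 2878 fell. All 10 markers of proliferating cells rose, and their summed level was 675 and 783 CPM with the particle against 242 and 210 CPM in control. Astrocyte markers rose in 8 of 10 and fell in 1, with sums of 4667 and 4513 CPM against 3347 and 3013 CPM. Neuron markers fell in 9 of 10, with sums of 5398 and 5225 CPM against 7019 and 7213 CPM, and none rose. Of 12 border and blood macrophage markers 9 were listed and 4 tested, and 3 of these rose (Pf4, Mrc1 and Ms4a7), with sums of 16.97 and 15.2 CPM against 6.96 and 7.57 CPM. Of 9 vascular and fibroblast markers 8 were tested, 5 rose and 1 fell, with sums of 293 and 322 CPM against 86.6 and 65.8 CPM. Of 9 oligodendrocyte lineage markers 8 were tested, 3 rose and 4 fell, with sums of 283 and 301 CPM against 236 and 193 CPM. The part of these cells in the levels of the 10 genes was not tested.

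In the ADM experiment, none of the 10 genes was called different between ADM and its control. 6 passed the filter on low counts and 0 were called by edgeR, where 0% of 16191 genes were. 0 of the 6 had an unadjusted p under 0.05, where 1426 of all genes did, and DESeq2 also called 0 of the 5 for which it gave an adjusted p. Over all genes DESeq2 called 277 higher and 56 lower of 14621 in this comparison. Their log2 fold changes ran from -0.81 ± 1.03 (Trem2) to -0.15 ± 0.93 (Ctss), with edgeR adjusted p of 0.808 to 0.974. The standard errors of the 6 genes ran from 0.72 to 1.22, against 0.15 to 0.39 for the same genes in set 1.

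For several genes the 2 libraries of each group were far apart. Cx3cr1 stood at 0.274 and 2.51 CPM in ADM libraries 1 and 2 and at 0.714 and 4.02 CPM in ADM control libraries 1 and 2. Tyrobp stood at 0.547 and 2.03 CPM in ADM and 0.595 and 3.34 CPM in control. Trem2 stood at 0.410 and 2.03 CPM in ADM and 0.774 and 3.50 CPM in control. For each of these genes library 2 was above library 1 in both groups, and the groups overlapped. P2ry12, Tmem119, Cst7 and Itgax did not exceed 0.777 CPM in any library of the experiment and were not tested.

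The ligand Csf1 stood at 76.2 and 179 CPM in ADM and 11.7 and 31.3 CPM in the ADM control, and Spp1 at 59.97 and 184 CPM against 3.81 and 16.2 CPM. Neither was called in edgeR (adjusted p = 0.546 for Csf1 and 0.540 for Spp1), although both ADM libraries lay above both control libraries.

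**Figure D4:**
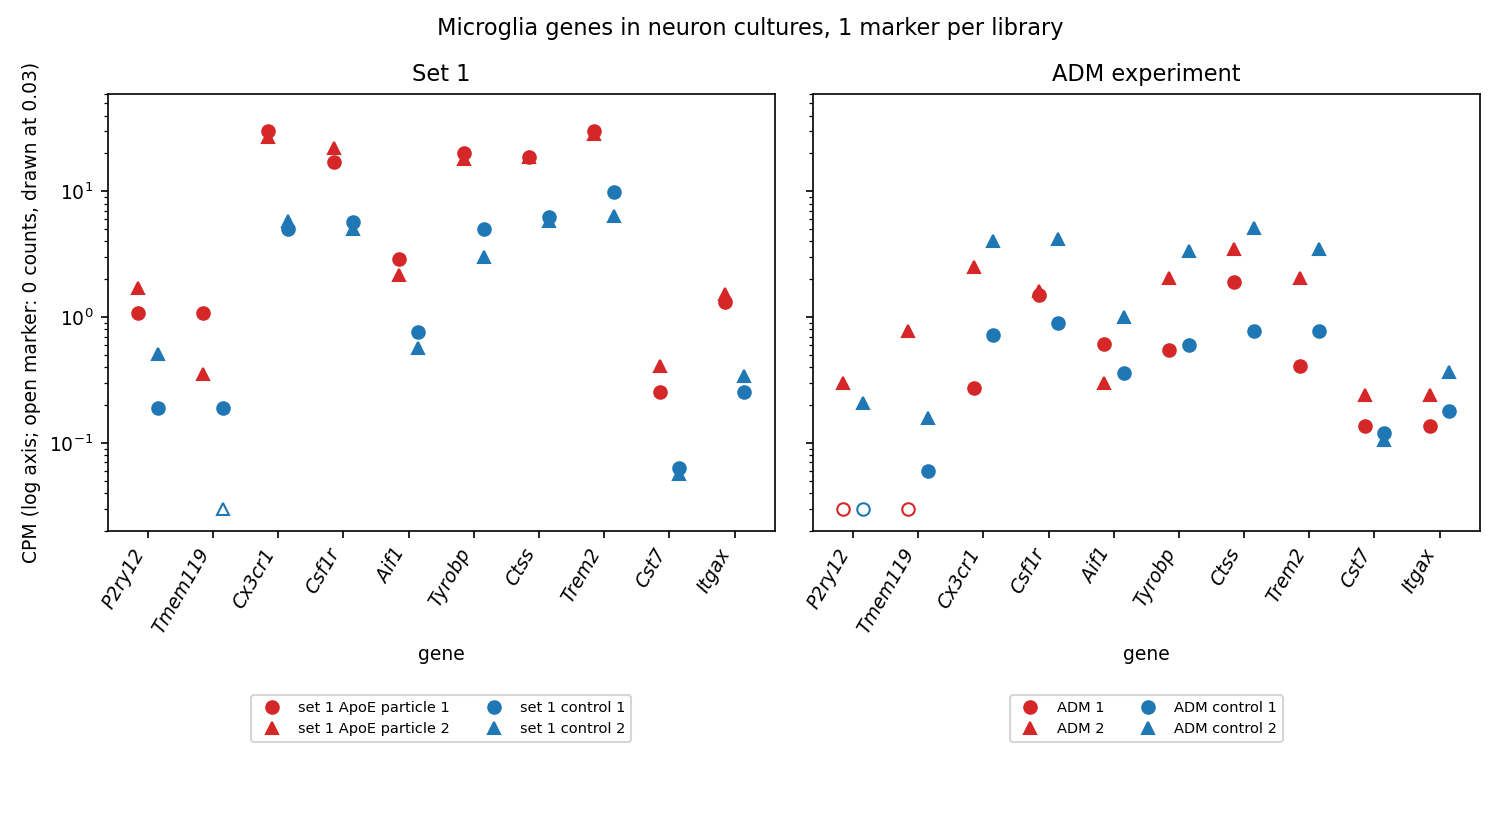
CPM of each gene on a log axis in the libraries of set 1 (left) and of the ADM experiment (right), with treated libraries in red, control libraries in blue and an open marker for 0 counts. In set 1 both ApoE particle libraries lay above both control libraries for each gene, whereas in the ADM experiment library 2 of either group was often above library 1 of the other.

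In set 2, the 10 genes were near the floor of detection in every group where they had values. No library held more than 11 counts of any of the 10 genes, whereas Cx3cr1 alone held 479 and 466 counts in the set 1 libraries with the ApoE particle. None of the 10 passed the filter on low counts, so none was tested with edgeR. 22.1% of 16388 genes were called for the ApoE particle against control, 0% for the reconstituted particle against control (776 genes had an unadjusted p under 0.05, and DESeq2 called 0) and 20.3% for the reconstituted particle against the ApoE particle.

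P2ry12 had 6 and 0 counts with the reconstituted particle, 4 and 4 with the ApoE particle and 5 and 6 in control. Csf1r had 2 and 11 counts with the reconstituted particle, 6 and 1 with the ApoE particle and 7 and 10 in control. Cst7 had 5 and 4, 3 and 1, and 2 and 4 counts in the same order. The libraries overlapped between the reconstituted particle and control for P2ry12 and Csf1r, while both ApoE particle libraries were below both control libraries for these genes. For the ApoE particle against control, the ratio of summed CPM was 0.412 for Csf1r (exact 95% interval 0.145 to 1.05) and 0.729 for P2ry12 (0.254 to 1.99), both intervals including 1. Cx3cr1 had the largest change among the 8 of these genes that were tested in set 1. In set 2 it had 3 and 0 counts with the reconstituted particle, 2 and 0 with the ApoE particle, and 0 in both controls. No fold change is therefore given for it in set 2.

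Csf1, by contrast, was well measured in set 2. It stood at 48.1 ± 3.85 CPM with the reconstituted particle, 27.5 ± 3.36 CPM with the ApoE particle and 56.0 ± 8.54 CPM in control (SD, n = 2 each), and fell by 1.03 ± 0.11 on the log2 scale with the ApoE particle against control (edgeR, adjusted p = 1.36e-06). Spp1 stood at 2.095 ± 0.65 CPM with the reconstituted particle, 0.597 ± 0.43 CPM with the ApoE particle and 2.84 ± 0.25 CPM in control, and fell by 2.23 ± 0.43 on the log2 scale with the ApoE particle (edgeR, adjusted p = 0.00051). Both rose with the particle in set 1. Of the 25 other microglia and macrophage genes, 22 had values in the set 2 control and ApoE particle libraries. They summed to 47.6 and 44.8 CPM with the ApoE particle and 59.6 and 48.8 CPM in control. In that comparison 6 were tested, of which 2 fell and 0 rose. Of the 19 other genes of the activated state, 15 were tested in set 2 with the ApoE particle, of which 8 fell and 0 rose. Over all 16388 genes tested in that comparison, 1976 fell and 1641 rose. In the same comparison 8 of 10 astrocyte markers fell and 1 rose, 7 of 10 markers of proliferating cells fell and 1 rose, and 4 of 7 vascular and fibroblast markers tested fell and 0 rose. The part of such cells in these values was not tested.

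The effect of the ApoE particle was compared between the sets by an interaction term on the genes listed in both tables. 6 of the 10 genes were tested and 2 were called lower in set 2, where 16.4% of 17098 genes were. The difference (set 2 minus set 1, log2) was -3.04 ± 0.70 for Csf1r (edgeR, adjusted p = 0.00386) and -3.73 ± 1.05 for Aif1 (adjusted p = 0.0135). Neither gene passed the filter in set 2 on its own, so both were tested through their set 1 counts. The calls are therefore not read as support for a difference. The Csf1r value was -4.76 without set 2 ApoE particle library 1 and -2.24 without set 2 ApoE particle library 2, and the part of Hmgxb3 reads in its few set 2 counts was not tested. In set 2, Aif1 had 1 and 1 counts with the ApoE particle and 3 and 5 in control, so this difference rests on few molecules, and its call was lost without set 2 control library 2 (adjusted p = 0.0929). P2ry12 was not called (adjusted p = 0.0771) but was without set 1 control library 2 (adjusted p = 0.0426). Itgax, Ctss and Cx3cr1 were not called (adjusted p = 0.211, 0.201 and 0.562) and their set 2 counts were at the floor. For Csf1 the difference was -2.86 ± 0.17 (adjusted p = 9.76e-08).

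The genes outside the lists whose pattern was most like the mean of the 10 were sought over the 14 neuron libraries, by the mean absolute difference of log2(CPM + 0.1) centred within each table. In the set 2 control and ApoE particle libraries this mean covered only the 8 genes with values. Of 14751 genes, the closest were Apbb1ip at 0.151, Mpeg1 at 0.187, Cdca5 at 0.203, Abca9 at 0.212 and Adam8 at 0.213, against a median of 0.573. Apbb1ip, an adaptor of integrin activation in blood-lineage cells, stood at 13.6 and 11.04 CPM with the set 1 particle and 2.66 and 2.71 CPM in control. Mpeg1, the pore-forming protein perforin-2 of macrophages, stood at 83.0 and 82.8 CPM against 26.4 and 29.0 CPM. Cdca5 stood at 7.47 and 8.297 CPM against 2.276 and 2.204 CPM, and Abca9 at 10.3 and 7.36 CPM against 3.03 and 4.07 CPM. Adam8 stood at 44.3 and 45.6 CPM against 13.4 and 12.4 CPM. In set 1 the median log2 fold change was 1.834 over the tested members of the 10 and 1.855 over 10 proliferating cell markers. Which cells the 5 closest genes came from was not tested.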

How the data were processed

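Per the labels' protocols, total RNA was extracted with Trizol and 2 µg per sample entered the NEBNext Ultra kit. The authors deposited raw counts, whole numbers per gene, and applied no normalization. The submitters' processing notes name HISAT2 2.1.0, Bowtie2 2.2.3, HTSeq 0.6.0 and mm10, and the sources used here give no role, strand setting or annotation. From these counts, CPM was computed with the sum of each library's counts. Neuron comparisons were tested in R 4.3.3 with edgeR 4.0.16 (filterByExpr, TMM scaling, robust quasi-likelihood F test), adjusted by Benjamini-Hochberg over all genes of a comparison, at 0.05. The groups of set 2 shared 1 fit. The steps were tested on simulated data. Hippocampus log2 ratios used a prior of 0.5 counts, whereas ratios given as fold used no prior, so the 2 forms differ slightly for a gene with few counts. Exact binomial intervals came from SciPy 1.17.1. Intervals and floors cover counting error only. Gene lengths and overlaps came from GENCODE on GRCm38, the assembly of mm10. RefSeq held promoter sequences for 7 of the 10 genes. Alternatives were DESeq2 1.42.0, library totals, no filter, other priors and pseudocounts, a replicate block and leaving out each library. The 10 genes and all lists were chosen with earlier results of these data known. Named genes are the 10, up to 4 members of each list with the lowest adjusted p in set 1, Csf1, Il34, Cx3cl1, Cst3 and Itgb2, Apoe in hippocampus and the 5 genes with the most similar pattern. Fcrls, Lpl, Cd74, Cd8a and H2-Aa fall outside this rule and were chosen after their values were seen. All 17 per-sample columns were used.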

Additional observations from a re-analysis of the deposited data

Results flagged for a closer look

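For 2 genes the effect of the ApoE particle was called different between the 2 sets of neuron cultures when the difference itself was tested. The log2 difference, set 2 minus set 1, was -3.04 for Csf1r (edgeR, adjusted p = 0.00386), with both set 2 ApoE particle libraries below both set 2 control libraries and both set 1 ApoE particle libraries above both set 1 control libraries. It was -3.73 for Aif1 (edgeR, adjusted p = 0.0135), with the same order of libraries in each set. In set 2 no library held more than 10 counts of Csf1r or 5 of Aif1 in these 2 groups, and neither gene passed the filter on low counts there, so both entered the test through their set 1 counts. For Aif1, 1 of the 2 set 1 control libraries was under the filter's 0.607 CPM, and the call was lost without set 2 control library 2 (edgeR, adjusted p = 0.0929). The Csf1r value ran from -4.76 to -2.24 over the fits that left out 1 library, and the share of its counts that could come from the overlapping gene Hmgxb3 was not tested.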

How the results depend on the processing

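The hippocampus results rest on 1 library per group. With control shRNA without FC in place of control shRNA with FC, a comparison added after seeing the data, the count of genes past 2-fold lower with ApoE shRNA was 1 in place of 10. For ApoE shRNA with FC against control shRNA without FC it was 0 with TMM factors. The activation minus homeostatic difference was 3.75 higher in control shRNA with FC than in control shRNA without FC, 3.35 with a pseudocount of 0.5 CPM and 2.35 from summed counts. For ApoE shRNA with FC against control shRNA with FC it was -4.49, -3.41 and -2.21 in the same settings. Leaving out 1 library at a time, 7 to 8 genes were called in set 1, 0 in the ADM and set 2 comparisons, and 1 to 3 in the difference between sets. In set 1, without a filter, 9 were called, Tmem119 being added. The replicate block changed no count of the 10 genes called (8 in set 1, 0 for ADM). Over all genes it moved the ADM calls of edgeR to 373 higher and 92 lower, against 0 without it. The samples share only a number, with a correlation of 0.48 between the library differences of the ADM groups. In the ADM comparison each of the 6 directions turned under at least 1 setting, and leaving out 1 library at a time gave lowest values of -2.43 (Trem2), -1.19 (Aif1), -1.46 (Csf1r), -1.90 (Tyrobp), -0.96 (Ctss) and -3.15 (Cx3cr1). Without ADM control replicate 2, uncalled values reversed to 0.65 (Trem2), 0.30 (Aif1), 0.77 (Csf1r), 1.09 (Tyrobp), 1.77 (Ctss) and 0.95 (Cx3cr1). Without ADM replicate 1 they were 0.02 (Tyrobp), 0.21 (Ctss) and 0.06 (Cx3cr1), and with the replicate block 0.19 (Ctss). Without set 2 ApoE particle replicate 1 the uncalled difference of Cx3cr1 between sets was -2.33, and the highest such value was 1.77. The cause was not tested.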
